A study of Mus musculus with 12 samples.

Results

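Ferroptosis is a form of cell death driven by iron-dependent peroxidation of membrane phospholipids. The genes described here are 8 core regulators of that process, Gpx4, Aifm2, Slc7a11, Slc3a2, Acsl4, Lpcat3, Dhodh and Gch1, chosen by name from the 14275 genes listed in the data. Every one of the 8 was listed in all 12 libraries, as were 10858 genes in total. The libraries were made from total RNA of BV-2 cells, a line of mouse microglia made to grow without limit, and fall into groups of 3 labelled LPS+NMN, LPS, NMN and Control. LPS is lipopolysaccharide, an outer membrane component of bacteria that microglia respond to, and NMN is nicotinamide mononucleotide, a precursor of NAD. Control libraries are from cells labelled with neither agent. All libraries are of the 1 cell line. The sources used here give no dose or time.

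The pathway has an arm that makes membranes oxidisable and several that protect them. Acsl4 and Lpcat3 place polyunsaturated fatty acids into phospholipids, the substrates of peroxidation. Slc7a11 and Slc3a2 form the cystine transporter that feeds glutathione synthesis, and Gpx4 uses glutathione to reduce phospholipid hydroperoxides. Aifm2, Dhodh and Gch1 act beside Gpx4 by supplying radical-trapping lipids or cofactors: reduced ubiquinone and tetrahydrobiopterin.

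Each library is a catalogue of transcript events without read counts, so the measurement is which first and last exons and which splicing events (an exon skipped, an intron retained, an exon end moved) were listed for a gene, and how many. These numbers are not expression levels, depth is unknown, and an event that was not listed may still have been present. A library held 11911 to 12246 genes and 50784 to 55787 distinct events. Control replicate 1, which stood apart for Slc7a11 and Slc3a2, had the most genes and the most events of the 12; the part of catalogue size in those results was not tested. The cell type is given as macroglia in the labels and as microglia in the title. Of 12 microglial marker genes, 12 were listed in some library and 10 in all, with 39 to 44 events summed in LPS+NMN, 38 to 42 in LPS, 33 to 42 in NMN and 38 to 47 in Control libraries. Of 7 astrocyte markers 2 were listed in any library, and Aqp4, Slc1a3, Aldh1l1, Gja1 and Sox9 were in none. Of 7 neuronal markers 4 were listed in some library and 1 in all, and Rbfox3, Snap25 and Syt1 were in none. Of 7 oligodendrocyte markers 5 were listed in some library and 2 in all, and Mog and Olig1 were in none. Summed events of the neuronal markers were 4 in LPS+NMN, 2 to 4 in LPS, 2 to 4 in NMN and 2 in Control libraries. Those of the oligodendrocyte markers were 5 to 8 in LPS+NMN, 6 to 8 in LPS, 4 to 8 in NMN and 9 to 13 in Control libraries.

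In the number of events per gene, none of the 8 regulators passed the test in any of the comparisons made. Acsl4 had the most events, 7.75 on average over 12 libraries, more than 88.6% of the genes listed in all libraries. Slc3a2 followed with 6.42, then Aifm2 and Dhodh with 4.25 each, Slc7a11 with 4.17, Lpcat3 with 2.75, Gpx4 with 2.33 and Gch1 with 2.17. In these numbers an Acsl4 exon end listed in both an exact and an approximate form counts in each form. Counted once, such ends would place Acsl4 below Slc3a2. The median gene averaged 3.83 events. The event numbers of neighbours in this order overlapped between libraries. Summed over the 8 genes, a library held 31.7 ± 2.31 events in LPS+NMN, 32.7 ± 4.16 in LPS, 34.0 ± 1.0 in NMN and 38.0 ± 7.0 in Control (SD, n = 3 each).

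**Figure D1:**
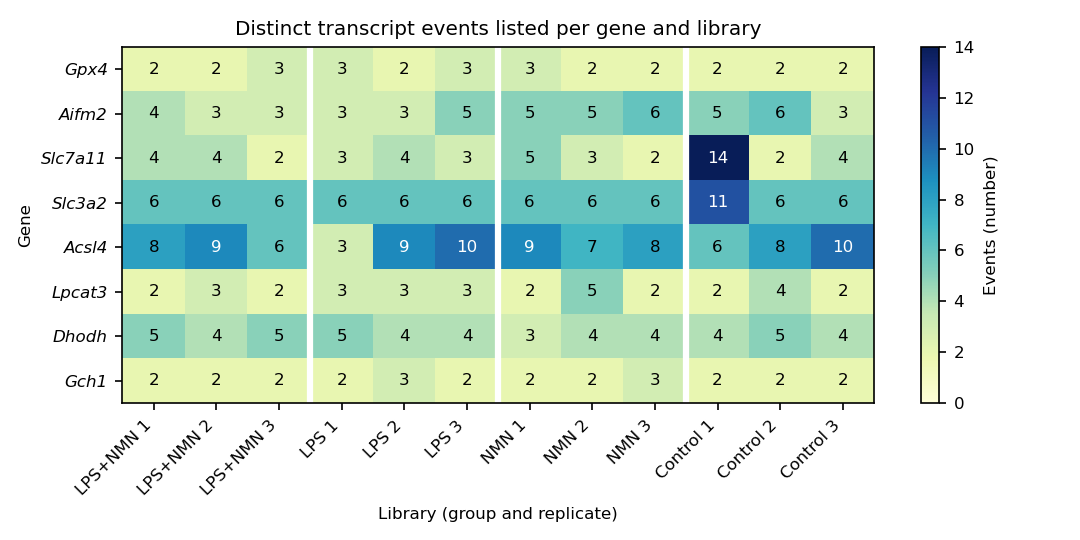
Number of distinct listed events, as colour and printed value, of each core ferroptosis gene (vertical axis) in each of 12 libraries (horizontal axis), with white lines between groups. Groups overlap for each gene except Aifm2, where NMN libraries hold 5 to 6 events and LPS+NMN libraries 3 to 4. That pair of groups was not tested, its share over all genes was not computed, and it is not read as a result. Control replicate 1 stands highest for Slc7a11 with 14 events and for Slc3a2 with 11.

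Event numbers were compared on the log2(events + 1) scale with limma over 11671 genes, with Benjamini-Hochberg adjustment over all of them. The question put by the LPS+NMN against LPS comparison is whether NMN changes the state of LPS-treated cells. There 0 of the 8 genes passed an adjusted p of 0.05, and none passed it over the whole table (0.0% of genes called). At an unadjusted p below 0.05, 0 of 8 genes and 521 of 11671 genes (4.46%) passed. Lpcat3 had the lowest difference, -0.28 ± 0.28 (SE; adjusted p = 0.93), and Acsl4 the highest, 0.17 ± 0.34 (adjusted p = 0.982). The median difference of the 8 genes was -0.06, beside 0 for all genes tested. No gene among the 8 had event numbers that failed to overlap between these groups, against 3.09% of all genes.

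In LPS against Control, 0 of 8 genes passed, where 0.300% of all genes did, and 0 of 8 passed at an unadjusted p below 0.05, where 872 genes (7.47%) did. Gpx4 differed by 0.28 ± 0.17 (SE; adjusted p = 0.747) and Slc7a11 by -0.50 ± 0.48 (adjusted p = 0.851). In NMN against Control, 0 of 8 passed against 0.231% of all genes, and 0 of 8 at an unadjusted p below 0.05 against 7.0%. In LPS+NMN against Control, 0 of 8 passed against 0.334% of all genes, and 0 of 8 at an unadjusted p below 0.05 against 7.45%. Medians over the 8 genes were -0.08 in LPS+NMN, -0.11 in LPS and 0.05 in NMN, each against Control, with 0 for all genes. These 3 comparisons share the Control libraries. Gene event numbers that did not overlap included 0 of the 8 in each of them. Over all genes they made up 4.85% for LPS+NMN, 5.0% for LPS and 4.34% for NMN, each against Control. The interaction, the effect of NMN in LPS-treated cells minus its effect in untreated cells, called 0 of 8 genes and 0.0428% of all genes; adjusted p-values of the 8 genes lay between 0.896 and 0.948, and at an unadjusted p below 0.05 it called 0 of 8 and 5.75% of all genes.

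**Figure D2:**
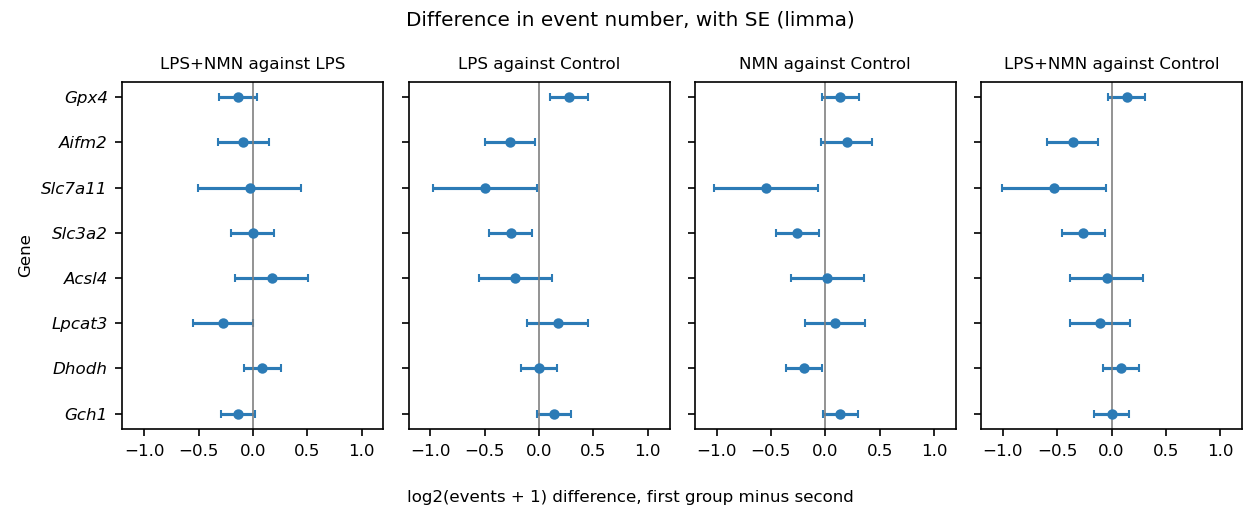
Difference in log2(events + 1) of each core ferroptosis gene, with its standard error from limma (horizontal bars), in each comparison of groups; the vertical line marks 0. Slc7a11 has the widest errors, 0.48, and its differences against Control are -0.53 in LPS+NMN, -0.50 in LPS and -0.55 in NMN.

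Some events of Slc7a11 and Slc3a2 were listed in whole groups of libraries and missing from others. The 8 genes had 86 distinct events, of which 17 (19.8%) were listed in all 12 libraries and 40 (46.5%) in 1 library, beside 16.2% and 44.0% of all 141591 events. An event was called set apart where all 3 libraries of one group listed it and no library of the other did. In LPS+NMN against LPS, 3 of 54 events of the 8 genes were set apart, all of them of Slc7a11, beside 0.770% of all events. In LPS against Control it was 4 of 70, of Slc7a11 and Slc3a2, beside 1.21% of all events. In NMN against Control it was 1 of 72, listed under Slc3a2, beside 1.02%. In LPS+NMN against Control it was 2 of 71, both listed under Slc3a2, beside 1.22%. The event of NMN against Control was also among those of LPS and of LPS+NMN against Control. It is a plus-strand last exon, opposite to the strand of Slc3a2, that matched an exon of the neighbouring gene Snhg1. The criterion is looser with 1 library left out: without Control replicate 3 there were 7 such events in LPS against Control (beside 2.87% of all events) and 5 in LPS+NMN against Control (2.84%). Without LPS+NMN replicate 2 there were 5 in LPS+NMN against LPS (2.17%), without LPS+NMN replicate 3 there were 4 in LPS+NMN against Control (2.86%), and without NMN replicate 1 there were 4 in NMN against Control (2.59%). Events of 1 gene share its transcripts and are not independent, and no test was made on them.

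The files do not name the mouse assembly of their positions, which are printed unconverted. Exon names are from GENCODE M21 on GRCm38, matched by the lengths and spacing of exons after 1 shift per gene. Of the 110 exon boundaries in the 86 events, 69 met an exon of their own gene, 7 an exon of a neighbouring gene and 34 none. Without any shift, 0 of 110 did. Outside Slc7a11 the match was 56 of 71. The shift of each gene was the one that matched the most boundaries, so these numbers are no separate check of the exon names. Matches at the shift used ran from 2 for Gch1 to 17 for Dhodh. The next best shift matched 1 boundary for Gch1 and 2 for Dhodh.

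Slc7a11, also called xCT, is the light chain that carries cystine into the cell in exchange for glutamate (chr3:49892526-50443614, minus strand, GRCm38). The last exon of its transcript Slc7a11-201, exon 12, with its splice site at 50326815, was listed in all 3 LPS libraries and in no other. A second last exon that starts in exon 6 and runs on, at 50372481, was likewise listed in the 3 LPS libraries and in none of the LPS+NMN, NMN or Control libraries. Slc7a11-202, annotated as a retained-intron transcript, ends in that exon. LPS+NMN replicate 1 listed a last exon whose boundary, 50326811, lies 4 bases from that of exon 12. With such boundaries merged, LPS+NMN and LPS differed in 2 events rather than 3. Coding sequences are given for exons 6 and 12, where the 2 last exons listed in all 3 LPS libraries start. Exon 6 is an internal exon of Slc7a11-201, so its sequence alone does not mark an end of the transcript. The stretch that runs on past exon 6 is not printed. The sequences lie at chr3:50417988-50418032 for exon 6 and chr3:50372305-50372366 for the coding part of exon 12, minus strand, GRCm38, from GENCODE M21.
Slc7a11-201 exon 6: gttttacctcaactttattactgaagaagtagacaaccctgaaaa
Slc7a11-201 exon 12, coding part: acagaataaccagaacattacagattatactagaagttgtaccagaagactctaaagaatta

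A further protein-coding transcript, Slc7a11-205, is annotated with a last exon 479 kb beyond exon 12 of Slc7a11-201, and no library listed it. The other libraries mostly listed last exons at sites that are not annotated. A last exon at 50254161, which lies 72.7 kb beyond exon 12 of Slc7a11-201, was listed in LPS+NMN replicate 3, NMN replicates 1 and 3 and Control replicate 3. A neighbouring one at 50254701, 72.1 kb beyond exon 12, was listed in NMN replicate 2 and Control replicates 1 and 2. No library listed a far last exon together with exon 12. LPS+NMN replicate 2 listed as its only last exon one on the plus strand, opposite to the gene. LPS replicate 2 held a further last exon at 50360637.

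A first exon of Slc7a11 was also set apart between LPS+NMN and LPS libraries, and in no other comparison made. The annotated exon 1, with its splice site at 50397434, was listed in all 3 LPS+NMN libraries, all 3 NMN libraries and Control replicates 1 and 3, and in no LPS library. LPS libraries listed as their first exon one at 50582731, 185 kb upstream of exon 1 and matching no annotated exon. That upstream exon was also listed in LPS+NMN replicate 2, NMN replicate 1 and Control replicates 1 and 3, so it was not set apart between groups. A first exon with an unannotated splice site at 50397798, within the span of exon 1, was listed in replicates 1 and 2 of both LPS+NMN and NMN and in no LPS or Control library. Control replicate 2 listed neither exon 1 nor the far upstream exon.

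**Figure D3:**
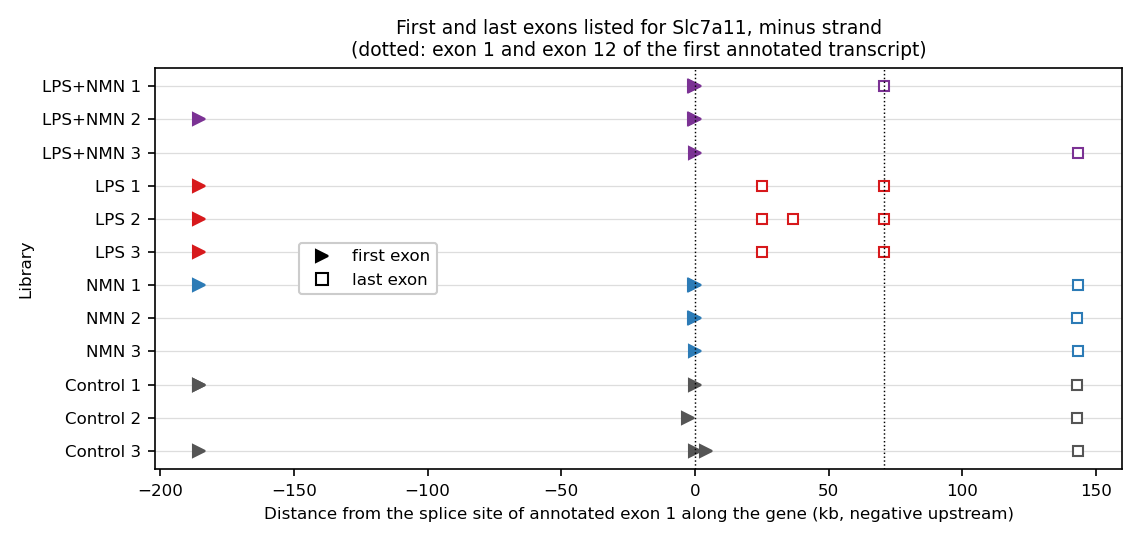
Listed minus-strand first and last exons of Slc7a11 in each of 12 libraries, placed by distance along the gene from exon 1 (kb, negative upstream). The only last exon of LPS+NMN replicate 2, on the plus strand, is not drawn. LPS libraries list the first exon 185 kb upstream and the last exons in exons 6 and 12; exon 1 is listed in 8 libraries, none of them LPS.

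In event number, Slc7a11 had 4, 4 and 2 events in LPS+NMN, 3, 4 and 3 in LPS, 5, 3 and 2 in NMN and 14, 2 and 4 in Control libraries. The groups overlapped, and the Control mean was set by replicate 1. Without that library the differences against Control turned to 0.12 in LPS+NMN, 0.15 in LPS and 0.10 in NMN. Of the 14 events in Control replicate 1, 5 were skipped exons, 2 were alternative ends of an exon and 2 skipped several exons together. Several of these boundaries lay upstream of exon 1 and matched exons of Gm6209, a long noncoding RNA gene that was listed under its own name in no library. Whether these belong to Slc7a11 transcripts was not tested.

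Slc3a2 encodes the CD98 heavy chain, which holds Slc7a11 and other light chains at the plasma membrane (chr19:8706882-8723369, minus strand, GRCm38). It had 6, 6 and 6 events in LPS+NMN, LPS and NMN libraries alike, and 11, 6 and 6 in Control libraries. All groups shared the value 6, and 5 of the 11 events of Control replicate 1 were in that library alone. First exons at 8691325, 8691479, 8691682 and 8700348, which begin Slc3a2-206, Slc3a2-205, Slc3a2-208 and Slc3a2-202, were listed in all 12 libraries. The skipping of a 95-base exon, exon 4 of Slc3a2-202, was also listed in all 12. Its length leaves a remainder of 2 on division by 3, so its loss changes the reading frame. The exon lies at chr19:8711834-8711928, minus strand, GRCm38, and is shown from GENCODE M21 as the splicing event of this pathway that every library held.
Slc3a2-202 exon 4: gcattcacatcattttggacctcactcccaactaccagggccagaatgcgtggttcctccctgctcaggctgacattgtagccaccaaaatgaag

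Each library listed exactly 1 last exon for Slc3a2, and which one differed between groups. The gene's annotated last exon, at 8685458, was listed in all 3 LPS+NMN libraries, all 3 LPS libraries and NMN replicates 1 and 3, and in no Control library. In its place, all 3 Control libraries listed a plus-strand exon at 8703603, opposite to the gene's strand, which matched the last exon of the neighbouring noncoding gene Snhg1. NMN replicate 2 listed another plus-strand exon, at 8694105, that matched no annotated exon. Snhg1 was listed under its own name in no library. Genes with events on both strands made up 3.63% to 4.73% of the genes in a library, and Slc3a2 was among them in the 3 Control libraries and NMN replicate 2. Whether this reflects the naming of overlapping transcripts was not tested, and the sources used here do not say how strand was handled.

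Gpx4 is the selenoenzyme at the centre of the pathway and the gene named in the study's title (chr10:80047166-80056439, plus strand, GRCm38). It had 2, 2 and 3 events in LPS+NMN, 3, 2 and 3 in LPS, 3, 2 and 2 in NMN and 2, 2 and 2 in Control libraries. The values of all groups overlapped at 2. Its first exon at 79889322 to 79889549, exon 1 of Gpx4-202, and its last exon were listed in all 12 libraries. The added event where there were 3 was in each case a second first exon at 79889871 to 79890134, exon 1 of Gpx4-201. That exon was listed in LPS+NMN replicate 3, LPS replicates 1 and 3 and NMN replicate 1, and in no Control library, so it was not set apart in any comparison. The 2 exons encode different protein starts: the one in every library opens the mitochondrial form and ends with the start codon of the cytosolic form, while the alternative opens the form known from sperm nuclei. Gpx4-201 has 253 codons, 56 more than the 197 of Gpx4-202. Their coding parts are shown from GENCODE M21 on GRCm38, plus strand, at chr10:80053632-80053715 and chr10:80054049-80054300, with start codons in capitals.
Gpx4-202 exon 1, coding part: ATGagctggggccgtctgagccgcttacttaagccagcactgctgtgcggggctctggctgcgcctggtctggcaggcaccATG
Gpx4-201 exon 1, coding part: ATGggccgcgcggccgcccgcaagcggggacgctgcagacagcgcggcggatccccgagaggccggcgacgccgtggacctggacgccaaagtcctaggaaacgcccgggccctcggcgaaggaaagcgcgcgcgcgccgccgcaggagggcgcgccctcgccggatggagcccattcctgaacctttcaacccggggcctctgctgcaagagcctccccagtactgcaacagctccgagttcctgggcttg

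Aifm2, also called FSP1, reduces ubiquinone and vitamin K at membranes (chr10:61715263-61739260, plus strand, GRCm38). It had 4, 3 and 3 events in LPS+NMN, 3, 3 and 5 in LPS, 5, 5 and 6 in NMN and 5, 6 and 3 in Control libraries. NMN libraries had the highest mean, 5.33 ± 0.577 (SD, n = 3), against 4.67 ± 1.53 in Control, and these groups overlapped; the difference was 0.20 with an adjusted p of 0.873 in limma. LPS+NMN libraries, with 3.33 ± 0.577 events, did not overlap with NMN libraries. This pair of groups was not tested, and the share of all genes that do not overlap in it was not computed. In the comparisons made that share was lowest in LPS+NMN against LPS, 3.09%, and highest in LPS against Control, 5.0%. Of all pairs of groups looked at for the core genes, no other lacked overlap. The separation is therefore not read as a result about Aifm2. Its first exon and the last exon of Aifm2-201 were listed in all 12 libraries, and the last exon of Aifm2-204 in all but Control replicate 2. Earlier last exons in Aifm2-205 exon 2 and in exon 9 were listed together, in LPS replicate 3 and NMN replicates 2 and 3. A pair of exon 9 ends, giving 176 and 228 bases, was listed in NMN replicate 1 and Control replicates 1 and 2. None of these events was set apart in the comparisons made.

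Dhodh reduces ubiquinone at the inner mitochondrial membrane during pyrimidine synthesis (chr8:109591343-109608673, minus strand, GRCm38). It had 5, 4 and 5 events in LPS+NMN, 5, 4 and 4 in LPS, 3, 4 and 4 in NMN and 4, 5 and 4 in Control libraries. Every group included the value 4. First exons of Dhodh-201 and Dhodh-205 were listed in all 12 libraries. Joint skipping of exons 7 and 8 was listed in 9 libraries, being absent from the lists of LPS+NMN replicate 3, LPS replicate 1 and NMN replicate 1. Together the exons have 314 bases, a remainder of 2 on division by 3, and Dhodh-209, which lacks them, has 277 codons against 395 in Dhodh-201. They lie at chr8:109594916-109595069 and chr8:109594620-109594779, minus strand, GRCm38, and are shown as the sequence that this recurring event removes.
Dhodh-201 exon 7: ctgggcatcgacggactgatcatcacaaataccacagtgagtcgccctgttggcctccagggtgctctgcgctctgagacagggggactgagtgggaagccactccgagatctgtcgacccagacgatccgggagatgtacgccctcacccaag
Dhodh-201 exon 8: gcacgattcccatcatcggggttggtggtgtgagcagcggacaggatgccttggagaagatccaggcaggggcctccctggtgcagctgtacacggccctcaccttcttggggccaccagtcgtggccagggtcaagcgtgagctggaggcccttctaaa

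Gch1, the rate-limiting enzyme of tetrahydrobiopterin synthesis, had the fewest events on average of the 8 (chr14:47153895-47189413, minus strand, GRCm38). It had 2 events, exon 1 as first and exon 6 as last exon, in every library. LPS replicate 2 added a first exon and NMN replicate 3 a last exon, giving 3 events in those libraries, and neither matched an annotated exon.

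Acsl4 activates arachidonic and adrenic acid for insertion into phospholipids (chrX:142317993-142390535, minus strand, GRCm38). It had 8, 9 and 6 events in LPS+NMN, 3, 9 and 10 in LPS, 9, 7 and 8 in NMN and 6, 8 and 10 in Control libraries. LPS replicate 1 was the lowest of all 12, and without it the LPS+NMN against LPS difference was -0.29, beside 0.17 with it. Most of its events were alternative ends of exon 3, each counted once in its exact and once in its approximate form where both were listed. Exon forms of 237 and 240 bases were listed in 11 libraries and one of 530 bases in 10; LPS replicate 1 listed none of them, and NMN replicate 2 lacked the longest. A form of 283 bases, not annotated, was listed in 1 library of each group. The longest form belongs to Acsl4-201, with 711 codons, and the shorter ones to Acsl4-202 and Acsl4-203, with 670. The 41 further codons of Acsl4-201 open the coding part of exon 3, at chrX:142351604-142351729, minus strand, GRCm38, shown with the start codons of Acsl4-201 and Acsl4-202 in capitals.
Acsl4-201 exon 3, start of the coding part: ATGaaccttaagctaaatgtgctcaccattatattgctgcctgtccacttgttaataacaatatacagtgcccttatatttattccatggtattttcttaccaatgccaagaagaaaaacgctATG

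Lpcat3 inserts arachidonic acid into lysophospholipids (chr6:124663027-124704418, plus strand, GRCm38). It had 2, 3 and 2 events in LPS+NMN, 3, 3 and 3 in LPS, 2, 5 and 2 in NMN and 2, 4 and 2 in Control libraries. LPS libraries all had 3, which lay within the range of each other group. Skipping of exon 3, of 107 bases, was listed in all 3 LPS libraries, against 1 library each of LPS+NMN, NMN and Control, replicate 2 in each case. Lpcat3-202, annotated as a target of nonsense-mediated decay, lacks that exon and has 99 codons against 487 in Lpcat3-201. The exon, which the LPS libraries listed as skipped most often, lies at chr6:124699239-124699345, plus strand, GRCm38.
Lpcat3-201 exon 3: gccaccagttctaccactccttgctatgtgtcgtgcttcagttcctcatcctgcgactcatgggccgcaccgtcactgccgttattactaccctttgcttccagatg

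**Figure D4:**
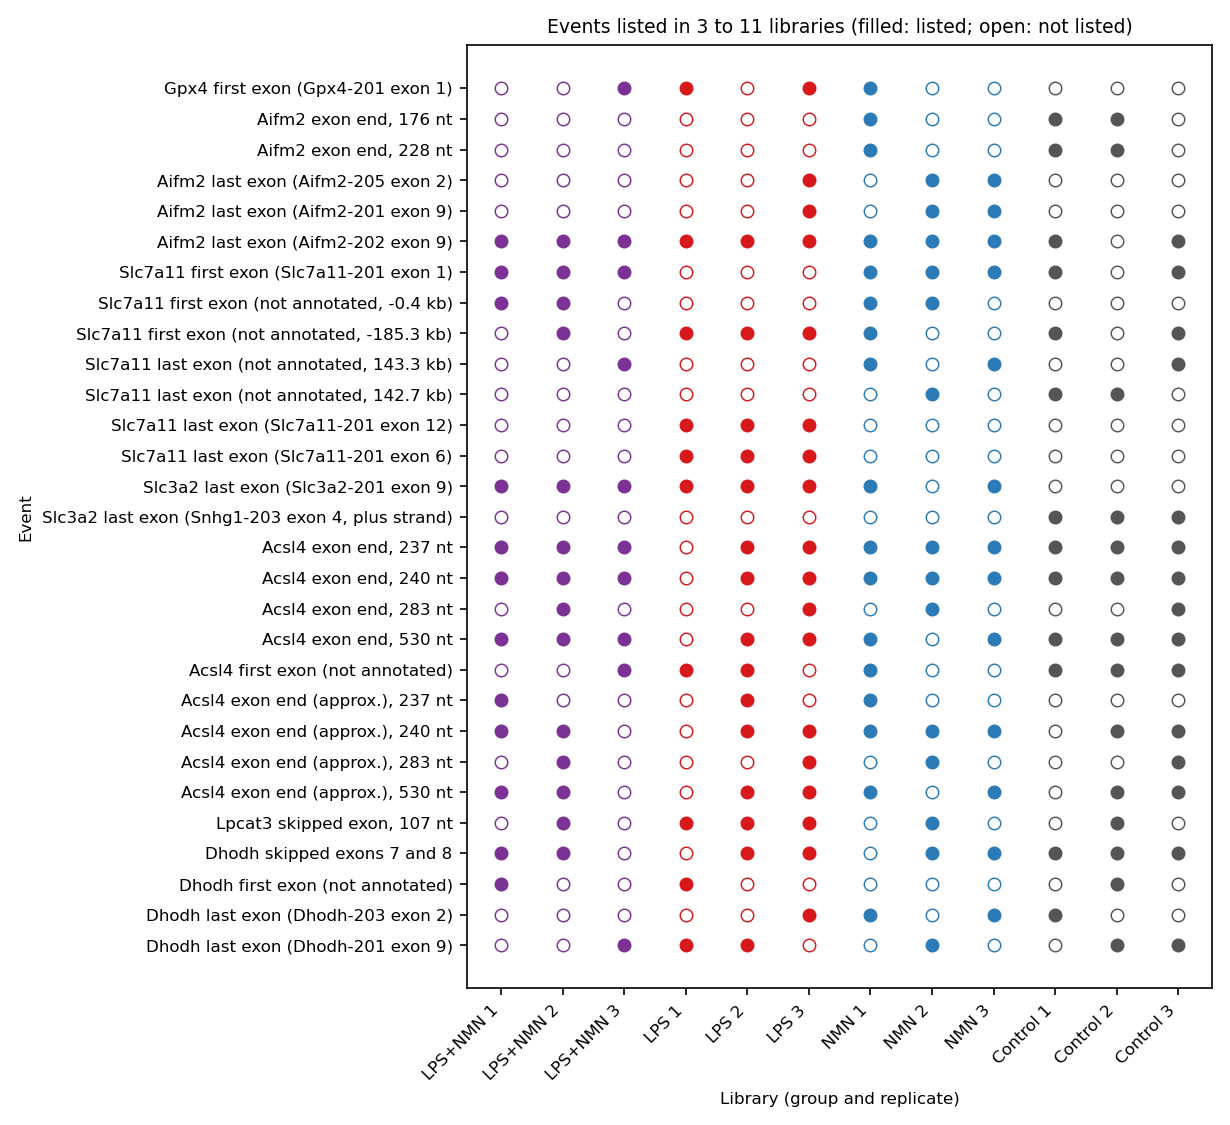
Events of the core ferroptosis genes listed in 3 to 11 libraries (rows), by library (columns); filled circles are listed and open circles are not. The 2 Slc7a11 last exons in exons 6 and 12 are filled in LPS libraries alone, and the plus-strand Slc3a2 last exon in Control libraries alone.

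Other genes of the pathway were also not called. Of 86 further genes in lists of glutathione supply, selenoprotein synthesis, ubiquinone and vitamin K, tetrahydrobiopterin and pyrimidine synthesis, polyunsaturated phospholipids, ferroptosis regulation and paralogs of the 8, 67 were tested and 0 passed in any comparison in limma. At an unadjusted p below 0.05, 2 passed in LPS+NMN against LPS (2.99%), 1 in LPS against Control (1.49%), 1 in NMN against Control (1.49%), 5 in LPS+NMN against Control (7.46%) and 0 in the interaction. Acsl1, a long-chain acyl-CoA synthetase and paralog of Acsl4, had 3, 4 and 6 events in NMN libraries, against 10, 8 and 7 in Control libraries, a difference of -0.83 ± 0.20 (SE; adjusted p = 0.255). Gsr, which regenerates glutathione, had 4, 4 and 4 events in LPS+NMN, against 3, 3 and 3 in LPS libraries, a difference of 0.32 ± 0.14 (adjusted p = 0.93). Neither passed the adjusted threshold. Both had groups that did not overlap, as did 4.34% of all genes in the comparison given for Acsl1 and 3.09% in that for Gsr. Both genes were named for having the smallest unadjusted p in a list. The number of the 67 genes with such groups was not computed. Cad, which opens pyrimidine synthesis, had 2, 2 and 3 events in LPS+NMN, against 3, 5 and 3 in Control libraries (adjusted p = 0.603). Coq9, of ubiquinone synthesis, had 6, 3 and 8 in LPS+NMN, against 3, 3 and 3 in Control libraries (adjusted p = 0.623). Those tested were 6 of 9 glutathione supply genes, 9 of 10 of selenoprotein synthesis, 12 of 13 of ubiquinone and vitamin K, 6 of 8 of tetrahydrobiopterin and pyrimidine synthesis, 18 of 21 of polyunsaturated phospholipids, 10 of 14 other ferroptosis regulators and 12 of 18 paralogs, some genes being in more than 1 list. Gss, glutathione synthetase, had 4, 3 and 3 events in LPS+NMN, against 7, 8 and 4 in Control libraries (adjusted p = 0.615), and these groups overlapped. Sepsecs, which makes selenocysteine on its tRNA, had 7, 6 and 3 in LPS+NMN, against 2, 3 and 3 in Control libraries (adjusted p = 0.654). Coq4, of ubiquinone synthesis, had 6, 2 and 6 in LPS+NMN, against 9, 9 and 6 in Control libraries (adjusted p = 0.615). Neither separated its groups. Acsl5, another paralog of Acsl4, had 3, 3 and 6 in LPS, against 2, 2 and 3 in Control libraries (adjusted p = 0.623). Bach1, a repressor of antioxidant genes, had 2, 2 and 3 in LPS+NMN, against 4, 3 and 4 in Control libraries (adjusted p = 0.710). Sat1, of polyamine catabolism, had 8, 8 and 5 in LPS, against 5, 5 and 5 in Control libraries (adjusted p = 0.699). Cbs, Ggt5, Sephs2, Pcbd1, Fads2, Mboat2, Yap1, Gpx7, Aifm3 and Acsl6 were listed in no library.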

How the data were processed

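RNA of BV-2 cells was sequenced in 12 libraries, grouped by their titles into 4 groups of 3. The labels do not tell whether a group's libraries stem from separate cultures; p-values therefore measure the spread among these libraries, which could be technical. The files deposited by the authors list transcript events, with type, gene, start, end and strand per the file headers, and hold no counts or depth. HOMER, MACS2 2.1.0, BWA 0.7.12 and GRCm38 are named in the submitters' processing notes. Which program listed the events is not stated there.

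Of 772924 lines, 128404 partner lines of paired events and 9998 repeated lines were left out. Across libraries, terminal exons were matched by gene and splice site, splicing events by type, gene and both ends. Events per gene were tested as log2(events + 1) with limma 3.58.1 in R 4.3.3 (trend and robust moderation, 1 model of 4 group means, genes with at least 1 event in 3 libraries, adjusted p below 0.05); the script was tested on simulated data. Alternatives were a pseudocount of 0.5, other filters, moderation and event definitions, a replicate block, and leaving out each library. The genes and lists were chosen with earlier results of these data known. Named list genes are those with the smallest unadjusted p in each list, of which a few are printed, and those listed nowhere. Figures were drawn with matplotlib 3.10.9.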

Additional observations from a re-analysis of the deposited data

How the results depend on the processing

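Over 642 differences of the 8 genes under 21 alternatives, 545 kept their sign, 70 were 0 in the reported or the alternative value, 27 reversed and 0 passed the adjusted threshold; the lowest adjusted p was 0.509. With first and last exons alone, the reversed values were -0.28 for Acsl4 in LPS+NMN against LPS, 0.088 for Aifm2, 0.031 for Slc7a11 and -0.14 for Lpcat3 in LPS against Control, and -0.14 for Acsl4 and Lpcat3 in NMN against Control. With splicing events alone they were 0.33 for Slc7a11 in LPS+NMN against LPS, -0.53 for Aifm2 in NMN against Control and 0.074 for Acsl4 in LPS+NMN against Control. Merging exact and approximate forms gave -0.14 for Acsl4 in NMN against Control. The cause of these reversals was not tested.

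Leaving out 1 library at a time, the LPS+NMN against LPS differences that reversed ranged from -0.29 to 0.44 for Acsl4, -0.15 to 0.21 for Slc7a11 and -0.20 to 0.11 for Aifm2. In LPS against Control the ranges were -1.01 to 0.15 for Slc7a11 and -0.48 to 0.25 for Acsl4. In NMN against Control they were -1.06 to 0.10 for Slc7a11, -0.15 to 0.18 for Acsl4, -0.25 to 0.33 for Lpcat3 and -0.037 to 0.37 for Aifm2. In LPS+NMN against Control they were -1.04 to 0.12 for Slc7a11, -0.25 to 0.14 for Lpcat3 and -0.21 to 0.11 for Acsl4.

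Event comparisons were varied in ways chosen after seeing the data. Leaving out 1 library, which leaves groups of 2 and a looser criterion, gave 4 to 7 set-apart events in LPS against Control, 1 to 4 in NMN against Control, 3 to 5 in LPS+NMN against LPS and 2 to 5 in LPS+NMN against Control. The highest were without Control replicate 3 (7, and 5 in LPS+NMN against Control), without NMN replicate 1 (4) and without LPS+NMN replicate 2 (5 in LPS+NMN against LPS). Without LPS+NMN replicate 3, LPS+NMN against Control gave 4, and without NMN replicate 2 or 3, NMN against Control gave 2.

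Event numbers showed no pairing by replicate number: same-numbered libraries' deviations correlated between -0.027 and 0.022, others between -0.015 and 0.024. Whether the samples were paired by culture or batch cannot be told from these values. With a replicate block, 0 of the 8 genes were called in any comparison, and the whole table gave 33 calls in LPS against Control, 26 in NMN against Control, 32 in LPS+NMN against Control, 0 in LPS+NMN against LPS and 4 in the interaction, beside 35, 27, 39, 0 and 5 without it. Over settings other than leaving out a library, whole-table calls ranged from 1 to 40 in LPS against Control, 1 to 32 in NMN against Control, 3 to 45 in LPS+NMN against Control, 0 to 6 in LPS+NMN against LPS and 0 to 39 in the interaction; leaving out a library, they ranged from 32 to 55 in LPS against Control (55 without Control replicate 1), 27 to 44 in NMN against Control (44, 44 and 43 without Control replicates 1, 2 and 3), 32 to 55 in LPS+NMN against Control, 0 to 11 in LPS+NMN against LPS (11 without LPS replicate 1) and 4 to 6 in the interaction. Depth is unknown, so listing limits cannot be given.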

Other observations

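For genes of at least 4 events on average, the pattern of event numbers over the 12 libraries was set beside those of 4 core genes that took at least 4 different values. By Pearson's r of log2(events + 1) over 12 libraries, among 4962 genes compared, Aifm2 was most like Bcl2l2 (0.937), Aspscr1 (0.857) and Tpra1 (0.843). Slc7a11 was most like Ppp1r18 (0.919), Sri (0.861) and Hk1 (0.85), which like it had their highest number in Control replicate 1. Acsl4 was most like Herc1 (0.904), Ipo13 (0.900) and Trim3 (0.865), which like it were lowest in LPS replicate 1. Lpcat3, compared with 4963 genes, was most like Pbxip1 (0.87), Srp19 (0.841) and Taf13 (0.837). The points share libraries and their unknown depth, and these values are descriptions of the 12 libraries.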
